A study of Mus musculus with 11 samples.

Results

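A set of 9 genes that mark resident Kupffer cells, the macrophages that live in the sinusoids of the liver, were followed through whole-liver RNA-seq of mice with an inducible YAP transgene: Clec4f, Vsig4, Timd4, Marco, Cd5l, Cd163, C1qa, C1qb and C1qc. They were chosen by gene symbol, as 9 of the 20893 rows of the deposited table, and all 9 were among the 14240 genes that passed the filter on low values. The 11 libraries came from C57BL/6 mice in 3 groups. The 4 control livers carry ROSA26-rtTA-IRES-EGFP without the tetYAP allele (genotype WT in the labels) and are listed with doxycycline food for 7 days. The 4 livers at 3 days and the 3 livers at 7 days carry ROSA26-rtTA-IRES-EGFP together with tetYAP and received doxycycline food for 3 or 7 days. In the study's methods the line also holds Alb-CRE, so rtTA and the YAP transgene are switched on in cells of the albumin lineage, the hepatocytes, and the Kupffer cells are not the cells that are meant to carry active transgene. Ages are not given in the sources used here. YAP is the transcriptional co-activator at the end of the Hippo pathway, and the comparisons ask how the expression of Kupffer cell genes in the liver changed with short and longer induction.

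Kupffer cells settle in the liver before birth, renew themselves locally under the growth factor CSF1 and clear microbes, dying cells and old red blood cells from the blood. When the niche is disturbed, monocytes from the blood can enter it and slowly take on the same genes. Clec4f is a lectin made in the mouse by Kupffer cells almost alone, Vsig4 (CRIg) is a complement receptor that captures bacteria, and Timd4 (TIM-4) binds phosphatidylserine on dying cells and marks long-resident Kupffer cells. Marco, Cd5l and Cd163 belong to the scavenger receptor cysteine-rich family: Marco is a receptor for particles and bacteria, Cd5l (AIM) is secreted by tissue macrophages, and Cd163 takes up haemoglobin bound to haptoglobin. C1qa, C1qb and C1qc encode the chains of C1q, which starts the classical complement pathway and is made mainly by macrophages.

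On the mm9 assembly with GENCODE M1 genes, Clec4f lies on chromosome 6 (83594536 to 83606181, minus strand), Vsig4 on chromosome X (93442542 to 93488777, minus strand), Timd4 on chromosome 11 (46624302 to 46657834, plus strand), Marco on chromosome 1 (122371115 to 122401661, minus strand), Cd5l on chromosome 3 (87161803 to 87174996, plus strand) and Cd163 on chromosome 6 (124254669 to 124280545, plus strand). C1qb (136436044 to 136442102), C1qc (136445719 to 136448980) and C1qa (136451832 to 136454718) are neighbours on chromosome 4, all on the minus strand. No exon of the 9 genes overlapped an exon of another annotated gene. RefSeq promoters (GRCm38.p6, 250 bases before to 50 after the start) were matched for 8 of the 9 genes, all but C1qa. The 5 sequences are shown because these genes span the outcome at 7 days: Clec4f had the smallest change of the 9 and Marco the largest, Vsig4 was the most even between the 7-day livers, and C1qb and C1qc are a neighbouring pair whose levels kept together. They are written 5′ to 3′, and capitals mark GAGGAA or its reverse complement, a core that the macrophage factor PU.1 (Spi1) can bind.
Clec4f promoter, chr6:83656067-83656366, minus strand: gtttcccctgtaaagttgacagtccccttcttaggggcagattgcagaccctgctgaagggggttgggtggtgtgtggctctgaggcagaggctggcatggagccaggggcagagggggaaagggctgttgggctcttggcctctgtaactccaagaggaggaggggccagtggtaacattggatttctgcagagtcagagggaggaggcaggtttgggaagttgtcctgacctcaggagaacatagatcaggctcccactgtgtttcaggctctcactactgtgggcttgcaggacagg
Vsig4 promoter, chrX:96293389-96293688, minus strand: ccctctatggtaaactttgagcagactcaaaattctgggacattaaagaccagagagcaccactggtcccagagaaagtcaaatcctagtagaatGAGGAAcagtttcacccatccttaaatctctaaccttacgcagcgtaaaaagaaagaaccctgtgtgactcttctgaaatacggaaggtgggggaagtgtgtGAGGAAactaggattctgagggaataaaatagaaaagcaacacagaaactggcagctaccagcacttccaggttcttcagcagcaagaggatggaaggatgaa
Marco promoter, chr1:120504975-120505274, minus strand: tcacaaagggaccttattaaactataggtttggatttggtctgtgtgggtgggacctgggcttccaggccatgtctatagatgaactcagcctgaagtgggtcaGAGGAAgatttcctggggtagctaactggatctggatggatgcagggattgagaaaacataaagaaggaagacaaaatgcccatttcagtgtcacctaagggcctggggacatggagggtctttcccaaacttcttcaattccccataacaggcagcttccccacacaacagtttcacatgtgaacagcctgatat
C1qb promoter, chr4:136886151-136886450, minus strand: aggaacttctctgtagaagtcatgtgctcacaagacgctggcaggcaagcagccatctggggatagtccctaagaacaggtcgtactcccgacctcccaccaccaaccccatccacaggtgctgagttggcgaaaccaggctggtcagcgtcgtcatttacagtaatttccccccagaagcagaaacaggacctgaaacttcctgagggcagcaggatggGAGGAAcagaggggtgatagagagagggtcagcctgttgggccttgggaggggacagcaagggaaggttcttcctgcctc
C1qc promoter, chr4:136892865-136893164, minus strand: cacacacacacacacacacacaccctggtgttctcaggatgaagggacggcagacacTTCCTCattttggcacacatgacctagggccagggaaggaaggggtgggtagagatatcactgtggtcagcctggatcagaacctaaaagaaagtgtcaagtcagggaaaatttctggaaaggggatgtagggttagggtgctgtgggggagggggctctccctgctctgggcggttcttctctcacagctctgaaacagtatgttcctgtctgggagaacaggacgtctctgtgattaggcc
With both strands searched, GAGGAA was in 5 of the 8 promoters (Vsig4, Marco, Cd5l, C1qb and C1qc), against 28.3% of all 32851 promoters of the same length. TGCTGA, bound by MAF factors, was also in 5 of 8 (19.5% of all), and TGGGAA, the RBPJ core of Notch signalling, in 2 of 8, Clec4f and Marco (25.6% of all). Neither GGAATG, the core of the TEAD partners of YAP (14.7% of all), nor TGANTCA, the AP-1 motif (7.81% of all), was found in these 8 windows. No match of one motif overlapped a match of another. These are letter matches only.

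The values are eRPKM, exonic reads per kilobase of each gene scaled to the library's total, so they give the share of a liver's RNA reads that a gene takes. In whole liver, more cells of a type and more RNA of a gene per cell cannot be told apart. Reads on genes ranged from 1251396 (control liver 4) to 5941357 (liver 2 at 7 days), and the groups were not balanced: controls held 1251396 to 5495697, livers of day 3 2660233 to 3681416 and livers of day 7 5312486 to 5941357. Reads of very abundant genes grew less than depth: Alb, the albumin gene, had 2417 to 3102 reads in every library. Between control livers 2 and 4, whose depth ratio was 4.39, the median ratio of reads was 6.75 for genes with 20 to 50 reads per kilobase but 3.57 for those with 400 to 800 and 2.23 above 800, so in the deeper of these livers scarcer genes had higher eRPKM and very abundant genes lower eRPKM. By Xist and Ddx3y reads, controls and 3-day livers were 2 female and 2 male each, and the 3 livers at 7 days were female. The female ones of the first 2 groups were control livers 2 and 3 and livers 3 and 4 at 3 days. Liver markers were present throughout, with a summed level of 7 hepatocyte genes between 1354 and 3968 eRPKM in the controls, between 1652 and 2049 after 3 days of doxycycline, and between 1005 and 1133 after 7 days. Nothing in the labels beyond the numbering says how the livers of a group were collected, so p-values measure the spread between these samples.

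At 3 days of induction none of the 9 Kupffer cell genes was called, and at 7 days 8 of them rose, with ratios of means of 2.06 to 10. A gene was called at an adjusted p under 0.01 (limma, Benjamini-Hochberg over all genes tested) with an absolute log2 fold change above 0.5. At 3 days 0 of 9 rose or fell, where 0.0421% of all tested genes rose and 0 fell. In 0 of 9 did all 3-day livers lie above all controls (3.38% of all genes), and 0 of 9 were higher at an adjusted p under 0.05 (0.281%). No member had an unadjusted p under 0.05 either, against 1718 of all genes, and limma-voom on recovered reads also called 0. At 7 days against control 8 of 9 rose and 0 fell, against a background of 18.0% of all genes that rose and 5.77% that fell. The median log2 fold change of the 9 genes was 1.46, beside 0.26 over all genes. In all 9 genes each 7-day liver lay above every control, which was so for 36.7% of all genes. The step from 3 to 7 days was tested in the same fit, and the same 8 genes rose, against 14.0% of all genes that rose and 5.31% that fell, with a median of 1.23 beside 0.26. The 7-day livers lay above every 3-day liver in 9 of 9 genes, against 31.3% of all genes. The comparisons share samples and are not independent of each other.

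**Figure D1:**
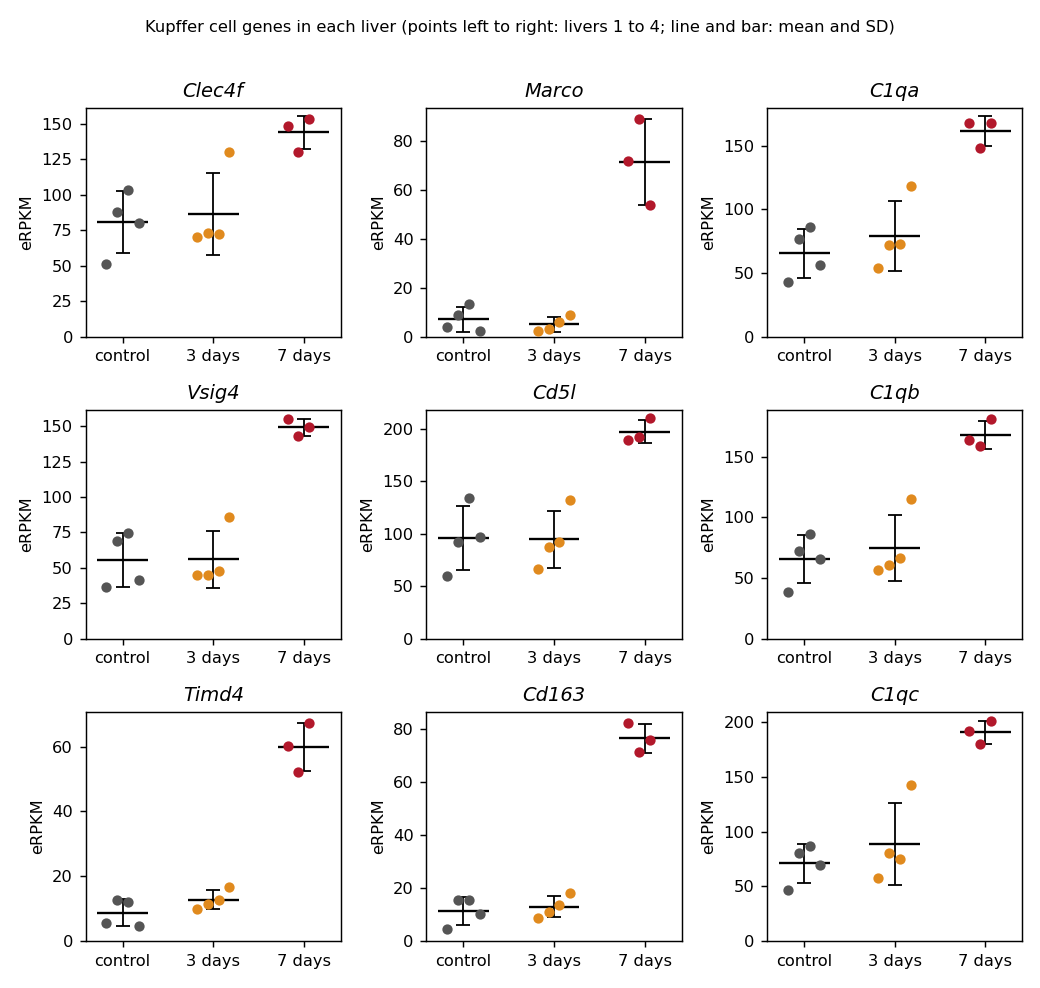
Level of each Kupffer cell gene (eRPKM, vertical axis from 0) in each liver of the 3 groups (4 control, 4 at 3 days, 3 at 7 days), with points from left to right for livers 1 to 4, a line for the mean and a bar for the SD. In every panel the 7-day livers lie above all others, narrowly so for Clec4f, where liver 2 at 7 days has 130.3 and liver 4 at 3 days has 129.9.

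Clec4f, the most specific of the Kupffer cell genes, changed least. It stood at 50.9, 87.9, 103 and 80.2 eRPKM in the controls (livers 1 to 4), at 70.5, 73.3, 72.1 and 129.9 after 3 days of induction, and at 148, 130.3 and 153 after 7 days. The 7-day livers were above all others, but liver 2 at 7 days was only narrowly above liver 4 at 3 days. The mean went from 80.4 ± 21.8 (SD, n = 4) to 86.5 ± 29.0 (n = 4) and 144 ± 11.7 (n = 3). Clec4f was not called at 7 days: its log2 fold change against control was 0.87 (SE 0.25, 95% interval 0.32 to 1.42, limma adjusted p = 0.0163) and against 3 days 0.78 (SE 0.25, adjusted p = 0.0309). Against control it was called after quantile normalization (1.31), in limma-voom (0.89) and at an adjusted p under 0.05 with any fold, a rule by which 27.9% of all genes were higher at 7 days than in controls and 25.4% higher than at 3 days.

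Vsig4, the complement receptor, rose at 7 days. In the order of the liver numbers, controls gave 36.7, 68.8, 74.3 and 41.2 eRPKM, induction for 3 days 45.3, 45.0, 47.9 and 86.1, and induction for 7 days 155, 143 and 149.7. The 7-day livers spread by a coefficient of variation of 4.09%, against 34.5% in controls. After 3 days the log2 fold change was 0.03 (SE 0.26, limma adjusted p = 0.977). After 7 days it was 1.49 (SE 0.28, adjusted p = 0.00112), with a ratio of means of 2.70. Among female livers the 7-day change was 1.06 and missed the threshold (adjusted p = 0.0103).

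Timd4, the receptor for dying cells, started at a lower level per length and also rose at 7 days. Control livers gave 5.49, 12.7, 11.9 and 4.64 eRPKM, those induced for 3 days 10, 11.4, 12.7 and 16.7, and those induced for 7 days 60.3, 52.3 and 67.3. The lowest 7-day liver was far above the highest other liver. The 3-day log2 fold change of 0.63 (SE 0.29) did not pass (limma unadjusted p = 0.0513, adjusted p = 0.418). The 7-day one was 2.84 (SE 0.32, adjusted p = 3.2e-05), with a ratio of means of 6.91, and the step between the times was 2.21 (adjusted p = 0.000230). Among female livers alone the 7-day change was 2.23 and still called (adjusted p = 0.000131).

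Marco, the scavenger receptor, had the largest change of the 9 and the widest spread. The controls gave 3.89, 8.97, 13.4 and 2.34 eRPKM, induction for 3 days gave 2.38, 2.96, 6.11 and 8.89, and induction for 7 days gave 71.8, 89.1 and 54.0. Behind these lie 6 to 101 reads per control liver, 13 to 67 per liver of day 3 and 587 to 1084 per liver of day 7. Control and 3-day livers overlapped throughout, and no 7-day liver came near them. The early log2 fold change was -0.35 (SE 0.48, limma adjusted p = 0.808). The later one was 3.47 (SE 0.52, adjusted p = 0.000239), with a ratio of means of 10. From 3 to 7 days it was 3.82 (adjusted p = 0.000158). Among female livers alone the change against control was 2.62 and still called (adjusted p = 0.000305), and with log2 depth as a covariate it was 2.82.

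Cd5l, secreted by tissue macrophages, had the highest mean of the 9 per length in every group, within the spread of C1qc. By their control means the order of the levels per length was Cd5l (95.9 eRPKM), Clec4f (80.4), C1qc (71.0), C1qb (65.6), C1qa (65.3), Vsig4 (55.3), Cd163 (11.4), Timd4 (8.68) and Marco (7.15). Neighbours in that order overlapped between livers, except for the step from Vsig4 to Cd163. It stood at 60.1, 92.4, 134 and 96.7 eRPKM in the controls, at 66.5, 87.8, 91.9 and 132 after 3 days, and at 189.5, 192 and 210.1 after 7 days. The 3-day values lay within the range of the controls, and the 7-day values above both. After 3 days the log2 fold change was -0.01 (SE 0.24, limma adjusted p = 0.997), and after 7 days 1.09 (SE 0.26, adjusted p = 0.00539). That call was the least steady of the 8: it was lost in 9 of 23 alternatives, among them the fit without any one of the 7-day livers or of control livers 1, 2 and 4 (0.89 to 1.12, adjusted p = 0.0110 to 0.0257).

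Cd163, the haemoglobin receptor, rose at 7 days from a low level too. Its controls gave 4.43, 15.4, 15.6 and 10 eRPKM, the livers of day 3 8.75, 11.1, 13.5 and 18.0, and those of day 7 82.4, 71.5 and 75.7. The first 2 groups overlapped, and the lowest 7-day liver was far above both. A 3-day log2 fold change of 0.26 (SE 0.33, limma adjusted p = 0.790) was followed by 2.84 (SE 0.36, adjusted p = 7.2e-05) after 7 days, with a ratio of means of 6.73.

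The C1q chains rose by like amounts at 7 days. C1qa gave 42.6, 76.3, 85.7 and 56.6 eRPKM in the controls, 53.8, 71.9, 72.6 and 118 after 3 days, and 168, 148 and 168 after 7 days. C1qb had 38.5, 72.1, 85.9 and 65.8, then 56.3, 61.0, 66.3 and 115, then 164, 159 and 181. C1qc had 46.5, 80.5, 87.2 and 69.9, then 57.3, 80.2, 74.8 and 143, then 192, 180.0 and 201. In each chain liver 4 at 3 days was above every control, and the other 3 livers of that group were not. After 7 days the log2 fold change came to 1.35 for C1qa (SE 0.27, limma adjusted p = 0.00174), 1.41 for C1qb (SE 0.28, adjusted p = 0.00166) and 1.46 for C1qc (SE 0.28, adjusted p = 0.00133). At 3 days they were 0.27, 0.18 and 0.27, none called (adjusted p = 0.704 to 0.815). From 3 to 7 days the log2 differences were 1.08 for C1qa, 1.23 for C1qb and 1.18 for C1qc, all called (adjusted p = 0.00493 to 0.00801), but these calls were lost in 12, 8 and 10 of 22 alternatives. The chains kept nearly fixed shares of their summed eRPKM over the 11 livers: 29.4% to 34.0% for C1qa, 28.6% to 34.2% for C1qb and 33.7% to 38.0% for C1qc. Other complement genes, a list that holds receptors and regulators beside classical pathway genes, were mixed. Of 19 measured complement genes, 3 rose at 7 days, a share near the 18.0% of all tested genes that rose. These were the receptor genes C5ar1 (log2 fold change 4.0, limma adjusted p = 1.6e-05) and C3ar1 (2.62), and the integrin Itgam (3.26), which the recruited monocyte list holds too. The C4 gene C4b fell (-1.39, adjusted p = 0.000609). The proteases that bind C1q had changes of -0.49 (C1ra, adjusted p = 0.0333) and -0.32 (C1s1, adjusted p = 0.197), not called. The list's median was -0.22, beside 0.26 over all genes.

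**Figure D2:**
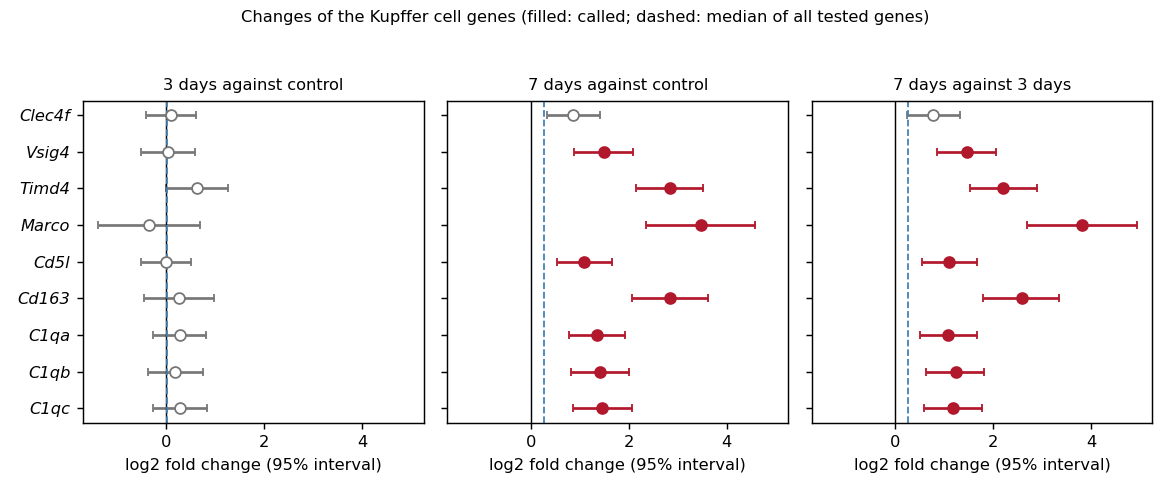
Log2 fold change (horizontal axis, limma on log2(eRPKM + 0.5)) with its 95% interval for each Kupffer cell gene in the 3 comparisons; filled red points were called, open grey points were not, and the dashed line is the median of all genes tested. No gene is called at 3 days, and Clec4f alone is open in both comparisons of the 7-day livers.

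In exact permutation tests (2-sided, on group means), every member had p = 0.0571 at 7 days against control and against 3 days, the smallest value that 3 livers against 4 can give, so this test cannot pass 0.05 there. At 3 days, where 4 against 4 could reach 0.0286, the exact p ran from 0.257 (Timd4) to 1.0 (Vsig4). The 7-day livers were deeper than all controls but control liver 2. Against that liver alone, with 5495697 reads within the 7-day range, each 7-day liver was higher in all 9 genes: 1.48 to 1.74 times for Clec4f, 2.08 to 2.26 for Vsig4, 4.11 to 5.29 for Timd4, 6.02 to 9.93 for Marco, 2.05 to 2.28 for Cd5l, 4.65 to 5.35 for Cd163, 1.94 to 2.21 for C1qa, 2.21 to 2.51 for C1qb and 2.24 to 2.5 for C1qc. These are ratios to 1 liver, with no test. With log2 depth as a covariate, Timd4, Marco and Cd163 remained called at 7 days and the other 5 calls were lost, with log2 fold changes of 1.19 to 1.46 (adjusted p = 0.0136 to 0.0239). Without control livers 3 and 4, the shallowest, the same 8 genes rose.

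Ratios of means at 7 days ran from 1.78 for Clec4f to 10 for Marco, and this was examined as ratios to Clec4f within each liver, a choice made after the values were seen. Timd4 per Clec4f was 0.108, 0.145, 0.115 and 0.0578 in controls, 0.142, 0.156, 0.177 and 0.129 at 3 days, and 0.408, 0.402 and 0.441 at 7 days. Marco per Clec4f was 0.0293 to 0.130 for controls, then 0.0338 to 0.0848, then 0.354 to 0.684 for the 7-day livers. Cd163 per Clec4f was 0.0871 to 0.175, then 0.124 to 0.187, then 0.496 to 0.558. For these 3 genes the 7-day livers were apart from all others with no overlap. The ratio moved less for Vsig4, from a geometric mean of 0.677 in controls to 1.04 at 7 days, and for the mean of the C1q chains, from 0.835 to 1.21, with all 3 livers above all controls. Cd5l per Clec4f had 1.05 to 1.31 in controls and 1.28 to 1.47 at 7 days, which overlapped (exact permutation p = 0.114). The other 5 ratios had an exact permutation p of 0.0571, the smallest that 3 livers against 4 allow, and the smallest adjusted value over the 18 tests made was 0.0935. Tests of 3 livers against 4 cannot pass 0.05, so the 7-day ratios stand as a description. The ratios at 3 days against control, with 4 livers against 4, could pass 0.05. Their exact permutation p ran from 0.0857 (Timd4) to 0.686 (Vsig4). At 7 days Clec4f had 776 to 811 reads per kilobase, Vsig4 790.4 to 846, Cd5l 1047 to 1177, C1qa 942 to 967, C1qb 881 to 968, C1qc 577 to 602 and Cd163 414 to 455, all above 400, where reads grew less than depth between control livers 2 and 4. Timd4 had 321 to 369 and Marco 296 to 546, which spans that bound. For the scarcer genes reads grew more than depth between these 2 livers. At a depth ratio of 4.39 the read ratio was 12.1 for Timd4 and 16.8 for Marco, with 13 and 6 reads in control liver 4. It was 6.76 for Cd163 and ran from 4.20 (Cd5l) to 7.36 (Vsig4) for the remaining members. The part of depth in the differing folds was not tested.

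**Figure D3:**
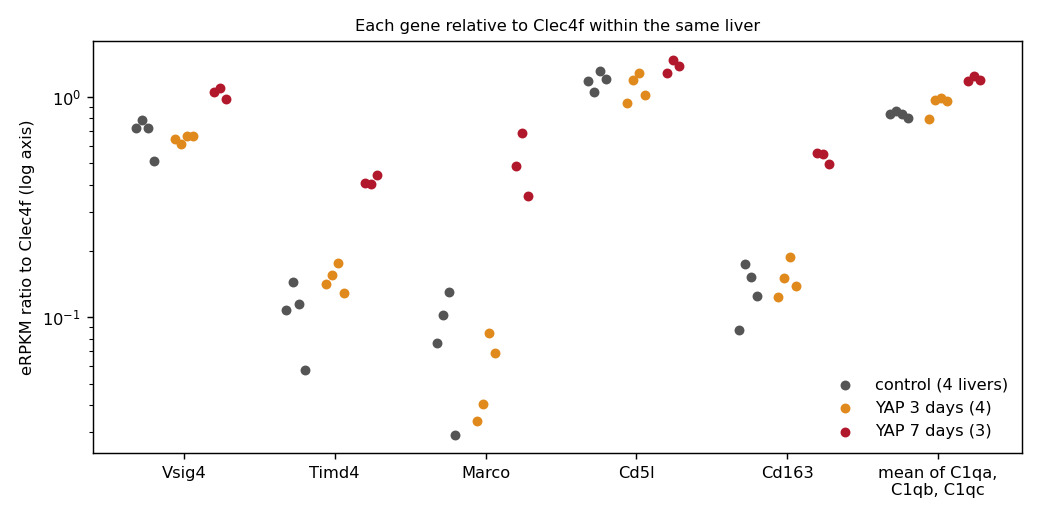
Ratio of each gene's eRPKM to that of Clec4f in the same liver (vertical log axis), by group (grey: control, orange: 3 days, red: 7 days), 1 point per liver. Timd4, Marco and Cd163 stand between 0.354 and 0.684 at 7 days and at or below 0.187 in every control and 3-day liver, while Cd5l overlaps.

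**Figure D4:**
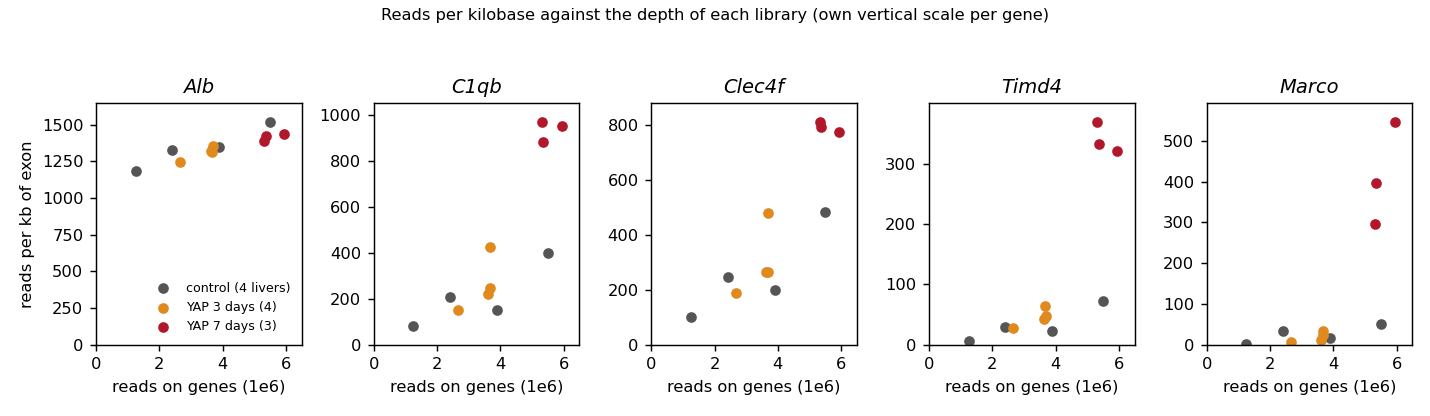
Reads per kilobase of exon (vertical axis, own scale per gene) against reads on genes of the library (in units of 1e6), 1 point per liver, for Alb and 4 Kupffer cell genes. Alb stays between 1183 and 1518 at every depth, while the 4 Kupffer cell genes are higher in the 7-day livers (red) than in control liver 2, the grey point at like depth.

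Within a group the 9 genes mostly deviated together. In control liver 1 all 9 genes lay below the group mean (mean log2 deviation -0.64), and in control livers 2 and 3 all 9 lay above it (0.34 and 0.55). At 3 days liver 4 had all 9 above (0.64) and livers 1 and 2 all 9 below (-0.43 and -0.19). In control liver 4 and in liver 3 at 3 days 4 genes lay above and 5 below (mean deviations -0.25 and -0.02). Control livers 2 and 3 and livers 3 and 4 at 3 days were female, and their mean deviations were above those of the male livers of their group. All livers at 7 days were female. Among female livers alone the median 7-day log2 fold change of the 9 genes against control was 1.09, beside 1.46 in all livers. The part of sex in these deviations was not tested. The 7-day livers differed little (-0.05 to 0.03). Over the 11 livers, which share library depth and group, Pearson's r between the log2 levels of 2 members ran from 0.84 to 0.99 over the 36 pairs, with a median of 0.96. After group means were subtracted it ran from 0.62 (Clec4f and Marco) to 0.99 (Clec4f and C1qb), with a median of 0.88. These are descriptions without a test. Liver 4 at 3 days set the direction of some small 3-day changes. Without it the log2 fold changes were -0.11 for Clec4f, -0.19 for Vsig4 and -0.04 for C1qb, none called. The comparison of 7 with 3 days then called all 9 genes. The label of liver 4 at 3 days is one of 3 with the suffix MF. Liver 1 at 3 days, where all 9 genes lay below the group mean, carries it too.

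The genes whose levels followed Clec4f most closely over the 11 livers, of 12563 other genes with a mean of at least 1 eRPKM, were Fcna (r = 0.989), Ctss (0.963), Bcl2a1b (0.962), Ccl6 (0.956) and Cfp (0.949). Those most like the mean of the C1q chains were Ccl6 (0.985), Cfp (0.982), Fcna (0.982), Ctss (0.973) and Dok2 (0.969). After group means were subtracted, the closest were Fcna (0.985), Ccl6 (0.976), Folr2 (0.949), Nxt1 (0.948) and Ctss (0.947) for Clec4f, and Folr2 (0.980), Ccl6 (0.963), Coro1a (0.962), Fcna (0.959) and Cfp (0.934) for C1q. Fcna encodes a ficolin and Folr2 a folate receptor, both found on Kupffer cells, Cfp is properdin of the alternative complement pathway, and Ctss is a lysosomal protease of antigen-presenting cells.

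Of a list of 18 other Kupffer cell genes 11 rose at 7 days against control and 0 fell (median 1.4, beside 0.26 over all genes, of which 18.0% rose). Paqr9 had -0.51 against control, not called, and fell by 0.87 against 3 days (adjusted p = 0.00580). The largest rises were Cd207 (log2 fold change 3.08, limma adjusted p = 9.8e-05), Siglec1 (2.57, adjusted p = 3.2e-05), Cfp (2.27), Slc16a9 (1.86), Sdc3 (1.77) and Folr2 (1.75). The other 7 did not pass, among them the transcription factor gene Nr1h3, which keeps Kupffer cell identity and is also used by hepatocytes, with 65.9 eRPKM in controls and 78.6 at 7 days (0.24, adjusted p = 0.274), and Spic (1.07, adjusted p = 0.130). Of 20 general macrophage genes 15 rose and 0 fell (median 1.54), led by the LPS co-receptor Cd14 (3.38), Spi1 (3.02), the Fc receptor Fcgr1 (2.92), Laptm5 (2.77), Cd68 (2.61) and Fcer1g (2.22). Their summed level was 378 to 583 eRPKM for controls, then 456 to 677, then 1331 to 1520.4 for the 7-day livers.

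Genes of recruited monocytes and of macrophages derived from them moved as well: of 16 listed, 8 rose at 7 days and 0 fell, with a median of 1.96. Trem2, a lipid receptor, went from 1.0 to 29.8 eRPKM (log2 fold change 4.41, limma adjusted p = 3.4e-06), Lgals3 (galectin-3) from 4.12 to 53.1 (3.86), the integrin Itgam from 1.52 to 18.5 (3.26), and Cx3cr1 from 1.75 to 12.8 (2.45). The chemokine receptor Ccr2 went from 2.37 to 11.9 (2.10, adjusted p = 0.000707). The monocyte gene Ly6c2 was at 2.18 in controls and 2.33 at 7 days (-0.23, SE 0.58, limma adjusted p = 0.779). With at most 22 reads in any library and 0.226 to 4.48 eRPKM between the 7-day livers, its change is poorly known. The summed level of the list was 72.6 to 114 eRPKM for controls, then 89.5 to 132, then 271 to 370.4 for the 7-day livers. Spp1, which the biliary list holds too, was its most abundant gene in each group. Its means were 38.7, 60.7 and 67.4 eRPKM, and it was not called. The part of these listed genes in the change of the 9 genes was not tested. At 3 days 0 genes of any of these lists were called. Markers of other cells were tested as well at 7 days. Of 7 hepatocyte genes, 2 fell (Cyp2e1 -2.0 and Ttr -1.40) and 0 rose. Of 8 endothelial genes 2 rose (Lyve1 1.93, and Cdh5 1.50, which the Kupffer cell list holds too), 1 of 8 stellate and fibroblast genes fell, 1 of 5 biliary and 1 of 7 T cell genes rose, and 0 of 4 B cell and 0 of 5 dendritic cell genes passed, beside 18.0% of all genes that rose and 5.77% that fell. Of 3 tested neutrophil genes 2 rose (S100a9 and Retnlg). The summed level of the 5 neutrophil genes in the table was 8.30 to 18.7 eRPKM in controls and 27.5 to 41.8 at 7 days, and 1 of 2 red cell genes fell. All 5 proliferation genes rose (median 3.67). Their part was not tested either.

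**Figure D5:**
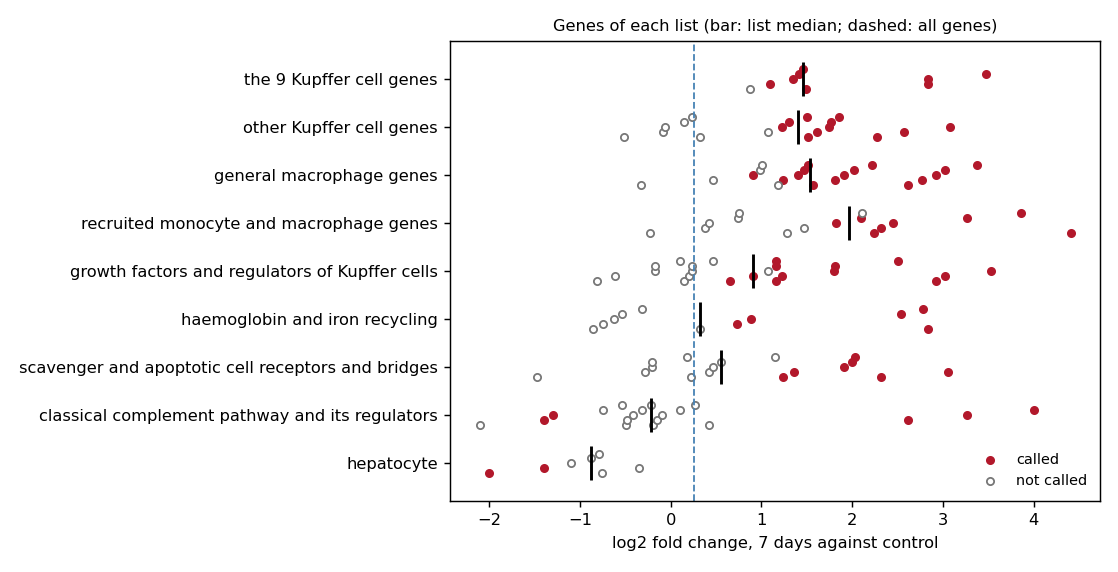
Log2 fold change at 7 days against control (horizontal axis) for each tested gene of 9 lists; filled red points were called, open points were not, the bar is the list's median and the dashed line the median of all genes tested. The Kupffer cell and macrophage lists lie mostly to the right of the dashed line, with medians of 1.4 to 1.96, and the complement list (-0.22) and hepatocyte list (-0.88) have medians to its left. Alb has the hepatocyte median, and its reads grew far less than depth. It had 268 eRPKM in control liver 2 and 234 to 258 in the 7-day livers, which are of like depth. The part of depth in that median was not tested.

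Genes around the function of Cd163 were mixed as well. Of 11 genes of haemoglobin and iron recycling 5 rose at 7 days and 0 fell, beside 18.0% of all tested genes that rose and 5.77% that fell. The 5 were Cd163 itself, the haem oxygenase Hmox1 (log2 fold change 2.78, limma adjusted p = 1.0e-05), the iron transporter Slc11a1 (2.54), the haem transporter Slc48a1 (0.89) and Blvra (0.73). The haptoglobin gene Hp, whose product Cd163 takes up with haemoglobin, had a mean of 393 eRPKM in controls and 231 at 7 days. Its log2 fold change was -0.62 (limma adjusted p = 0.124). The haem-binding Hpx had means of 485 and 239 (-0.85, adjusted p = 0.0600), and neither gene was called. Hp ranged from 209.8 to 692 between controls and from 215 to 242 between 7-day livers. For Hpx the ranges were 243 to 879 and 224 to 248, so the groups overlapped for both genes. The part of library depth in these differences was not tested. The list's median was 0.32. Of 17 tested scavenger receptors, apoptotic cell receptors and bridging proteins, 7 rose and 0 fell (median 0.56), beside the same shares of all genes. The list includes genes that share functions with Marco and Timd4. Those that rose were Mfge8 (3.06), Havcr2 (2.32), Axl (2.03), Gas6 (2.0), Msr1 (1.91), Stab1 (1.36) and Mertk (1.24). Msr1 and Mertk are on the general macrophage list too.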

How the data were processed

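Whole-liver RNA was sequenced in pairs in 11 libraries. Per the study's methods and the submitters' processing notes, the authors masked low-quality bases and aligned reads to mm9 with TopHat 2.0.8, without strand. The submitters' notes name featureCounts 1.4.5-p1, SAMtools and DESeq2. Gene annotation and duplicate handling are not given in the sources used here. The deposited eRPKM (an RPKM: reads per kilobase of exon, scaled to the library) were used. The authors' DESeq2 columns for 7 days against control, holding a mean signal, log2 fold changes and p-values, were deposited too and were not used here.

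Groups came from the labels. The filter kept genes that reached 0.5 eRPKM in 3 or more libraries. The test was limma 3.58.1 in R 4.3.3, with lmFit and a trended eBayes, fitted to log2(eRPKM + 0.5), which understates changes of low genes, with 3 groups in 1 fit and Benjamini-Hochberg adjustment. Calls used the study's thresholds, adjusted p below 0.01 together with a log2 fold change beyond 0.5 in size. The 4 rows with repeated symbols were left out. A single complement result is not reported here. Exact permutation tests used scipy 1.17.1. Low values were whole multiples of 1 step per gene, and each of the 177553 nonzero values (100%) lay no more than 0.1 from a whole read; these reads gave depth and the limma-voom alternative, which called 3746 genes at 7 days against control. Library totals set the precision: a gene with few reads is known only to within its counting error. The limma and read recovery steps were tested on simulated data.

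The 9 genes and the 20 gene lists were chosen with earlier results of these data known. All 9 were named. Of other lists, called genes were named up to 6 a list, largest change first, with some of the abundant genes that a sum rests on. For likeness the 5 highest correlations were named. Ly6c2, Nr1h3, Spic, C1ra, C1s1, Hp, Hpx, Ccr2 and Mertk were named outside that rule, after their values were seen. Same-numbered livers correlated at -0.22 to 0.27 after group means. Differently numbered livers were not compared, so this cannot settle whether the numbers pair livers, and the main fit did not pair them. Alternatives covered the pseudocount, filter, normalization, fit, covariates (depth, label suffix), sex, each liver left out and the threshold. The fit without control livers 3 and 4, the ratios to Clec4f and the ratios to control liver 2 were chosen after seeing the data.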

Additional observations from a re-analysis of the deposited data

Results flagged for a closer look

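Of the 18 sets examined (9 genes in the control and in the 3-day group, 4 livers each), 2 held a liver far from the other 3, beyond the 95% limit of Dixon's gap test. Both were liver 4 at 3 days, above the rest by 0.953 of the group's range in Clec4f and 0.930 in Vsig4. Chance alone gives such a gap in about 1 of 20 sets, and the sets are not independent, since the 9 genes vary together.

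The change against the shared controls differed between 3 and 7 days for 8 of the 9 genes, tested directly as 7 against 3 days in the limma fit. The log2 difference was 1.46 for Vsig4, 2.21 for Timd4, 3.82 for Marco, 1.10 for Cd5l, 2.58 for Cd163, 1.08 for C1qa, 1.23 for C1qb and 1.18 for C1qc, each higher in 3 of 3 livers. The largest adjusted p was 0.00801, for C1qa. Of 22 alternatives, the call was lost in 12 for C1qa, 10 for C1qc, 9 for Cd5l, 8 for C1qb and 1 for Vsig4, and in none for Timd4, Marco and Cd163.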

How the results depend on the processing

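Timd4, Marco and Cd163 remained called in all 23 alternatives at 7 days against control and in all 22 against 3 days, and no called gene turned direction. With log2 depth as a covariate the members called fell to 3 in both comparisons (all genes 1676 and 1679). Against control, median-ratio size factors gave 6 members (Cd5l and C1qb lost) and the female livers alone 6 (Vsig4 and Cd5l lost); against 3 days each gave 4, and eBayes without trend 5; leaving out each liver gave 4 to 9 members there (4 without liver 1 or 2 at 3 days or any 7-day liver, 9 without liver 4 at 3 days) and 7 to 8 against control. Counts over all genes moved to 2129 and 1424 in female livers, 5387 and 5080 at an adjusted p under 0.05, and 1984 without control livers 3 and 4, from 3381 and 2752; leaving out each liver gave 2054 to 3210 and 1411 to 3681. The share of rises among calls at 7 days was 75.7%, but 60.9% with size factors and 50.5% after quantile normalization (72.5%, 56.2% and 50.1% against 3 days); the median of all genes was then 0.26, 0.03 and -0.08, and that of the 9 genes 1.46, 1.19 and 1.90. At 3 days 0 members were called in any of 24 alternatives, and all genes numbered 6, but 3 without a filter or with the replicate block, 12 with size factors, 10 with the label suffix, 1 with depth and in voom, 0 with compared groups only, without trend or without control livers 3 and 4, 41 at an adjusted p under 0.05, and 0 to 54 without each liver (54 without liver 1 at 3 days). The replicate block, on numbers that are not known to pair livers, gave 8 members in both comparisons of the 7-day livers, with 2719 and 1977 genes in all. Uncalled 3-day changes turned sign: Vsig4 -0.10 (quantile), -0.08 (label suffix), -0.02 (depth) and -0.15 (female), and Cd5l 0.02 (depth), 0.03 (voom) and 0.30 (without control livers 3 and 4). Without each liver, the 3-day values ran from -0.11 to 0.23 for Clec4f, -0.19 to 0.19 for Vsig4, -0.74 to 0.02 for Marco, -0.21 to 0.17 for Cd5l, -0.11 to 0.46 for Cd163, -0.05 to 0.33 for C1qb. The cause was not tested. Depth limits Marco and Timd4 most, with as few as 6 and 13 reads in control liver 4.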

Other observations

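Of 23 tested genes that feed or regulate Kupffer cells, 12 rose at 7 days and 0 fell, with a median log2 fold change of 0.91. Of all tested genes 18.0% rose and 5.77% fell, with a median of 0.26. Among those that rose, Csf1r, Spi1 and Maf are on the general macrophage list too, and Id3 on that of other Kupffer cell genes. The growth factor Csf1 had a mean of 7.56 eRPKM in controls, 16.8 at 3 days (0.81, limma adjusted p = 0.476) and 91.0 at 7 days (3.53, adjusted p = 8.9e-05). Its receptor gene Csf1r, carried by macrophages, went from 26.1 to 89.8 (1.81, adjusted p = 0.000116). Il34, the other ligand of that receptor, was at 2.82 and 1.35 (-0.81, adjusted p = 0.0999), and Csf2 was listed at 0 in all libraries. Tgfb1 (2.5), Id1 (2.92) and Irf8 (1.80) rose too. The Notch ligand gene Dll4, whose product acts on cells entering the niche, was at 4.33 in controls and 3.48 at 7 days (-0.17, adjusted p = 0.717). Il34, Csf2 and Dll4 were chosen after their values were seen.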
